A study of Mus musculus with 2 samples.

Results

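The anterior pituitary hormone genes were examined in 2 single-cell RNA sequencing libraries of mouse optic nerve. The members were chosen by symbol, and they are 7 of the 32285 genes in the files, namely *Gh*, *Prl*, *Pomc*, *Cga*, *Lhb*, *Fshb* and *Tshb*. Both libraries, C-ON and FMC_new, carry the genotype label NF1-OPG and were made from 12-week-old mice, with the nerves of 10 mice pooled for a suspension. In the study these are C57BL/6 mice with one floxed and one mutant *Nf1* allele and a *GFAP*-Cre transgene, which removes the remaining *Nf1* copy from cells of the *GFAP* lineage and so models optic glioma. The word control stands in the title of C-ON, and its meaning is not known here. The protocol describes meningeal duras that were collected apart from the nerves. Both libraries belong to the same condition, so no test between conditions was possible, each library is 1 sample, and no p-value is given.

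Each cell type of the anterior pituitary is known for its own hormone. Somatotrophs make growth hormone (*Gh*), lactotrophs make prolactin (*Prl*), and corticotrophs and the melanotrophs of the intermediate lobe make proopiomelanocortin (*Pomc*), a precursor that is cut into corticotropin or melanocyte-stimulating hormone. Gonadotrophs and thyrotrophs share the glycoprotein alpha subunit (*Cga*), which pairs with the beta subunits of luteinizing hormone (*Lhb*) and follicle-stimulating hormone (*Fshb*) in gonadotrophs and with that of thyroid-stimulating hormone (*Tshb*) in thyrotrophs. Normal optic nerve is not known for making these hormones.

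In GRCm38 the genes lie apart from each other. *Gh* (ENSMUSG00000020713) spans chr11:106300271-106301865 on the minus strand, *Prl* (ENSMUSG00000021342) chr13:27057570-27065205 on the plus strand and *Pomc* (ENSMUSG00000020660) chr12:3954951-3960642 on the plus strand. *Cga* (ENSMUSG00000028298) spans chr4:34893779-34907370 on the plus strand, *Lhb* (ENSMUSG00000100916) chr7:45420820-45421897 on the plus strand, *Fshb* (ENSMUSG00000027120) chr2:107056140-107059656 on the minus strand and *Tshb* (ENSMUSG00000027857) chr3:102775465-102782718 on the minus strand. The longest annotated transcripts have 5 exons for *Gh*, *Prl*, *Cga* and *Tshb*, 4 for *Pomc*, and 3 for *Lhb* and *Fshb*. On the opposite strand, *Tshb* overlaps *Tspan2*, *Lhb* overlaps *Ruvbl2*, *Cga* overlaps *Platr9* and *Prl* overlaps *Gm47888*.

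The promoters of *Prl* and of the 3 subunit genes *Cga*, *Lhb* and *Tshb* are shown because the cells described here were told apart by these genes. The windows run from 250 bases before the RefSeq start of the gene, which for *Lhb* and *Tshb* is not the gene start given above, and hold 300 bases, 5′ to 3′ on the strand of the gene, from RefSeq (GRCm38.p6), which had a window for 6 of the 7 members. They are chr13:27057320-27057619 (plus), chr4:34893529-34893828 (plus), chr7:45420696-45420995 (plus) and chr3:102782665-102782964 (minus). Capitals mark matches on either strand to the cores TATNCAT of Pit-1 (the factor encoded by *Pou1f1*), TCACACC of Tpit (*Tbx19*), CAAGGTCA of SF-1 (*Nr5a1*), or to the TATA box TATAAA, and adjoining capitals in *Prl* and *Tshb* are overlapping TATA matches on both strands.
Prl: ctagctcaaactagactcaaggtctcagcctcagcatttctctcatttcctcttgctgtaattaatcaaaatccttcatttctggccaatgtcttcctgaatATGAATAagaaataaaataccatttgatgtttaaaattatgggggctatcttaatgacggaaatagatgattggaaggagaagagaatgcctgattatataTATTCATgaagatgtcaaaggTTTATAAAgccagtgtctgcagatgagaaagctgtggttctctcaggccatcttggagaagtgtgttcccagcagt
Cga: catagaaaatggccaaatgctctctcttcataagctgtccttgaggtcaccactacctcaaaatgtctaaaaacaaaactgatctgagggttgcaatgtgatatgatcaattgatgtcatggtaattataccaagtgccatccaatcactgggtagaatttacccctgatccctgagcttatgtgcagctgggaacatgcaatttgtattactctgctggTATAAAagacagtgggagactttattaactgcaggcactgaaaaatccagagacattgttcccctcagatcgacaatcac
Lhb: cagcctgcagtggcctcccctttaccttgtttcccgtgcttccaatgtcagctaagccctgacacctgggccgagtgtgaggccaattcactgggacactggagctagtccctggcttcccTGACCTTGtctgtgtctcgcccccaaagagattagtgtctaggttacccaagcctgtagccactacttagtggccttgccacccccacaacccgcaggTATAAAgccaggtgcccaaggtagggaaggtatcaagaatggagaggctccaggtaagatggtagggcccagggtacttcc
Tshb: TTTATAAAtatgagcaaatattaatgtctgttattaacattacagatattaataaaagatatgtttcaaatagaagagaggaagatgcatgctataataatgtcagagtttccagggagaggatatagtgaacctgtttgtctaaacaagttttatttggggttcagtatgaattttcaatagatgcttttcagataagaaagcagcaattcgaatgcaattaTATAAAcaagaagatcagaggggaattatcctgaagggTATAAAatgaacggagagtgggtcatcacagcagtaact
The *Prl* window held the Pit-1 core at 2 places, and the *Lhb* window held the SF-1 core once, on the minus strand. Of the 32851 promoters in the table, 8.84% held the Pit-1 core, 1.56% the SF-1 core, 3.98% the Tpit core and 13.6% the TATA box. Each of the 6 windows had a TATA box, and the Tpit core was in none of them, that of *Pomc* included. Bases more than 250 before the start were not searched, so nothing is read from the absence of the Tpit core. A match is a run of letters and no evidence of binding.

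The hormone genes filled one library and were nearly absent from the other. A UMI is a molecular tag that counts a captured RNA molecule once, and since the kit reads molecules from the 5′ end, UMI counts are not scaled by gene length. C-ON held 10845 barcodes with a median of 6422 UMIs, and FMC_new held 21341 with a median of 4001. Markers of oligodendrocytes, which myelinate the nerve, were present in both, 6 of 6, with a summed level of 42678 CPM in C-ON and 9432 CPM in FMC_new. The 7 genes together made up 4.64% of the UMIs of FMC_new, with 5990487 UMIs, and 0.00262% of those of C-ON, with 2230. In FMC_new, *Gh* held 3216515 UMIs, *Prl* 2084220, *Pomc* 604988, *Cga* 70861, *Tshb* 7292, *Lhb* 5200 and *Fshb* 1411. In C-ON the counts were 1 for *Gh*, 0 for *Prl*, 277 for *Pomc*, 1575 for *Cga*, 372 for *Tshb*, 1 for *Lhb* and 4 for *Fshb*. The order of the genes thus differed, with *Gh* and *Prl* leading in FMC_new and *Cga* and *Tshb* in C-ON. No *Prl* UMI in 10845 barcodes allows a share of barcodes of up to 0.0277% by a floor of 3 counts (0.0340% by the exact interval). Intervals and limits given here cover counting error only. The libraries share 296 barcode sequences, and the C-ON barcodes with these sequences held no *Gh* or *Prl* UMI.

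A barcode was called hormone-making where at least 1 of the 7 genes held 10% or more of its UMIs, and it was named by the gene with the most UMIs. By this rule 1251 barcodes of FMC_new were hormone-making, 5.86% (exact 95% Clopper-Pearson interval 5.55 to 6.19) of the library, and 0 of C-ON. They carried 86.0% of all hormone UMIs of FMC_new. *Gh*-making barcodes were the most frequent, with 620, followed by 429 *Prl*-making, 163 *Pomc*-making, 36 *Cga*-making and 3 *Tshb*-making barcodes. None was led by *Lhb* or *Fshb*, whose highest shares of a barcode were 6.05% and 1.28%. The threshold fell within a continuous range, with 58 barcodes between 9 and 10% and 55 between 10 and 11%, and *Pomc* led in 26 and 30 of these. Of the 1251, 810 (64.7%) passed the filter of the study on genes, UMIs and mitochondrial share, and 201 were above its limit of 20000 UMIs. Doublets were not removed.

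**Figure D1:**
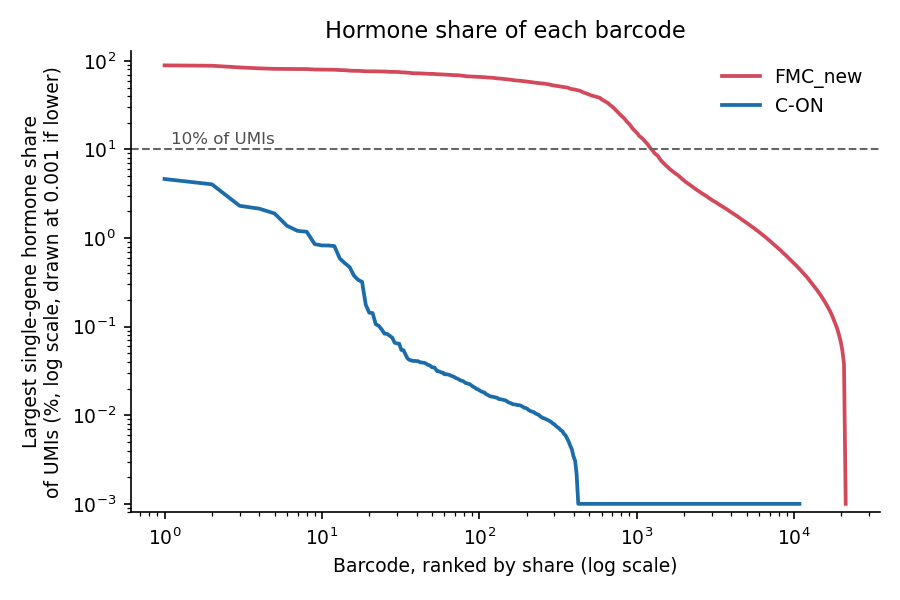
Largest share of a barcode's UMIs held by any 1 of the 7 hormone genes (%, log scale), for barcodes of each library ranked by it (log scale), with the line of 10% dashed and shares under 0.001% drawn at 0.001. FMC_new crosses the line at 1251 barcodes and C-ON stays below it.

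*Gh* held a large share of the UMIs of most *Gh*-making barcodes. In the 620 *Gh*-making barcodes its share had a median of 45.7%, ranged from 10.0 to 88.9% and had quartiles of 25.1 and 59.2%, with a median of 2550 *Gh* UMIs. *Prl*-making barcodes reached a median share of 35.8%, a highest share of 84.3% and a median of 1695 *Prl* UMIs. The shares were lower for *Pomc*, with a median of 14.1% and a highest value of 43.4%, and for *Cga*, with 17.0% and 48.0%. The 3 *Tshb*-making barcodes had shares from 10.4 to 25.1%. These shares were used by the rule and are given as a description.

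Hormones of separate lineages were seldom high in the same barcode. Among the 1049 barcodes led by *Gh* or *Prl*, both genes reached 10% in 3, and over the library 5 barcodes had 2 genes at 10%. The rule favours the gene a barcode is named for, so this is a description. The hormone that a barcode was not named for stood near the level found across the library. The median was 13 *Gh* UMIs in *Prl*-making, 13 in *Pomc*-making and 12 in *Cga*-making barcodes, against 13 in all other barcodes. For *Prl* the median was 4 in *Gh*-making and 4 in *Pomc*-making barcodes, against 4 in all others.

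**Figure D2:**
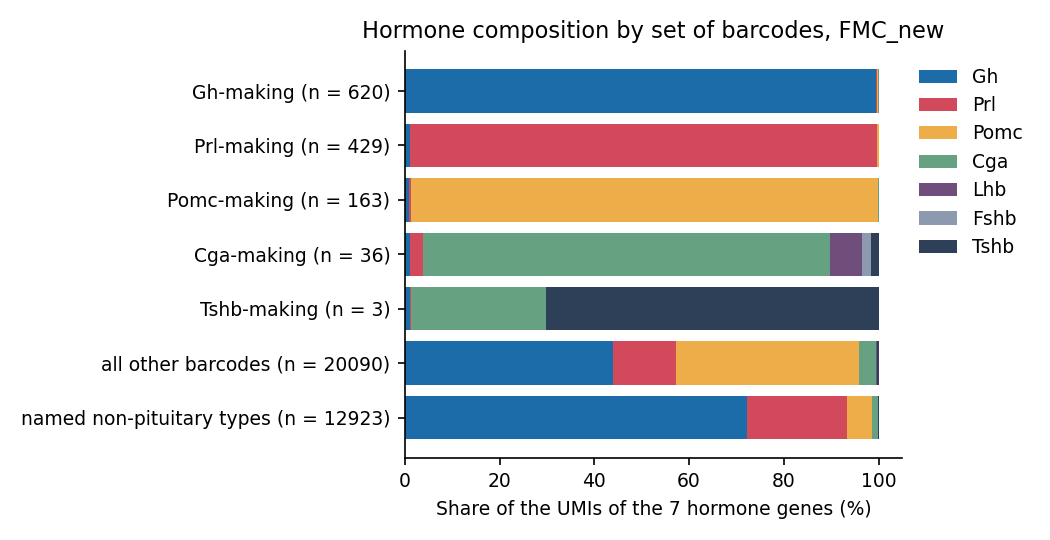
Share of each gene (%) in the hormone UMIs of FMC_new, for barcodes named by their leading hormone, for all others, and for clusters named as types other than pituitary. *Gh*, *Prl* and *Pomc* each fill nearly all of their own set, which the rule favours, while the named types hold 72.3% *Gh* and 21.1% *Prl*.

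Cells of the types named other than pituitary in FMC_new held a small number of *Gh* UMIs, with nearly constant medians outside epithelial-like cells. Clusters were formed in each library without the 7 genes and named from markers, and 14 named types other than pituitary had at least 50 barcodes, 12878 in all. At least 1 *Gh* UMI was present in 99.3 to 100% of barcodes, depending on the type. The median was 12 to 14 UMIs per barcode in 13 types and 16 in epithelial-like cells. The epithelial-like cluster was led by *Cyp2f2*, *Mia*, *Rbpms* and *Aldh1a2*, and whether its cells belong to the pituitary was not tested. *Prl* had medians of 3 or 4 and of 8 in epithelial-like cells, and the medians of the other 5 genes were 0. T cell-like cells, which should lack the gene, held a mean of 17.1 *Gh* UMIs (exact 95% Poisson interval 17.0 to 17.3, n = 3462 barcodes), and oligodendrocyte-like cells, the main glia of the nerve, held 17.1 (16.9 to 17.2, n = 2254). In C-ON, *Gh* had 0 UMIs in 841 T cell-like and 0 in 5594 oligodendrocyte-like barcodes.

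The median amount stayed nearly level over the depth of the barcodes. The median number of other UMIs ran from 2328.5 in astrocyte-like to 12079 in plasma cell-like cells, a 5.19-fold range, and the mean *Gh* counts of these types were 16.3 and 16.6. Over 10 bins of equal size of the named barcodes ordered by depth, the median *Gh* count was 12 or 13 at each step, from 1178 to 14877 other UMIs, and the mean was 15.5 and 15.3 in the 2 shallowest bins and 19.7 and 18.9 in the 2 deepest, while the *Gh* share of UMIs fell from 1.31 to 0.124%. The highest mean was 28.4 (27.8 to 29.1) in epithelial-like cells and the lowest 15.1 (14.8 to 15.3) in microglia-like cells, 1.89-fold apart. With barcodes thinned to 1000 other UMIs, the range became 2.95-fold, from 2.39 in plasma cell-like to 7.06 in astrocyte-like cells. Thinning scales a hormone count down by the depth of its barcode, so counts that are level over depth become lower in deeper types.

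**Figure D3:**
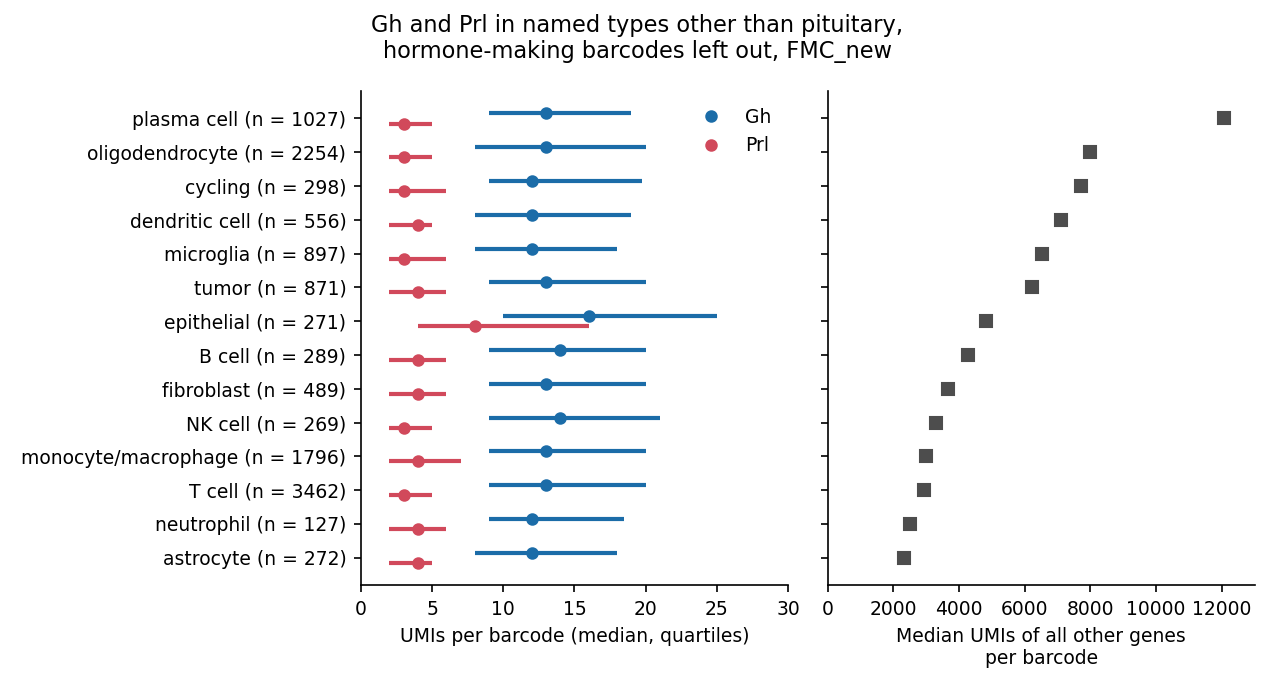
Left, *Gh* and *Prl* UMIs per barcode (median and quartiles) in the 14 named cell types of FMC_new other than pituitary, hormone-making barcodes left out, and right, the median UMIs of all other genes. The *Gh* medians stay between 12 and 16 while the depth varies 5.19-fold.

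The mix of hormones in these cells was not that of the hormone-making barcodes. In T cell-like cells there were 3.88 *Gh* UMIs for each *Prl* UMI, and 4.01 in oligodendrocyte-like and 3.97 in plasma cell-like cells. In the hormone-making barcodes together the ratio was 1.45. It was lowest among the types in epithelial-like cells, at 1.62, and in monocyte/macrophage-like cells, at 2.43, and highest in dendritic cell-like cells, at 4.46. Whether this RNA was free in the suspension was not tested, and empty droplets were not analysed here.

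All barcodes that were not hormone-making together held hormone UMIs at 0.717% (0.715 to 0.718) of their UMIs, and in the named types this was 0.415%. The difference came with *Pomc*, which made up 38.7% of the hormone UMIs of all other barcodes and 5.34% in the named types. Clusters 11, 15 and 22 held 73.3% of the *Pomc* UMIs of all other barcodes, in 1127 barcodes. Cluster 11, named pituitary endocrine-like, had 614 barcodes, of which 70 were *Pomc*-making, and the 539 that were not hormone-making had a median of 265 *Pomc* UMIs, or 3.32% of a barcode. The threshold of 10% therefore left many barcodes with high *Pomc* among the others.

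Few barcodes of the named types were hormone-making, with 9 of 3471 T cell-like (0.259%) and 4 of 2258 oligodendrocyte-like barcodes (0.177%), against 552 of 1157 pituitary endocrine-like barcodes (47.7%). Dendritic cell-like and fibroblast-like clusters had more, with 33 of 589 (5.60%) and 32 of 521 (6.14%). The 33 held *Clec9a*, a receptor of dendritic cells, in 54.5% of barcodes, against 64.6% of the other dendritic cell-like barcodes, and *Xcr1*, a chemokine receptor of these cells, in 42.4% against 55.2%. *Flt3*, a growth factor receptor of these cells, was in 18.2% against 63.1%, and the median depth was 3372 against 7115.5 UMIs. *Pou1f1* was in 12.1% of the 33. The 32 held the fibroblast gene *Dcn* in none, against 39.5% of the other fibroblast-like barcodes. They held *Col1a2*, another fibroblast gene, in 15.6% against 61.6%, and *Pou1f1* in 28.1%. Whether these are doublets was not tested.

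Genes of the secretory pathway stood with the hormones. Levels are given in CPM (UMIs of a gene scaled to the library size of a set, with the 7 hormones left out), summed over a set and set against T cell-like cells of the same library. Of 9 genes for secretory granules and prohormone processing, 8 were at least 10-fold higher in *Gh*-making barcodes, where 11.1% of all 12239 genes tested were. All 9 were in *Prl*-making barcodes (8.83% of all genes), in *Pomc*-making (7.84%) and in *Cga*-making barcodes (2.54%). Of the 9, 7 had 50 UMIs in T cell-like cells alone, and these 7 were at least 10-fold higher in each of the 4 sets. T cell-like barcodes of FMC_new also held *Gh*, and whether their UMIs of these 7 genes came from hormone-making cells was not tested. In T cell-like cells of C-ON, *Chgb* was at 1.57 CPM, against 18.6 in FMC_new, and *Pam* at 35.9, against 38.9. Passing the minimum is therefore not independent of the hormone-making barcodes. The median fold of the 9 genes was 41.2, 47.2, 84.1 and 279 in the 4 sets, and that of all genes tested was 1.30, 1.07, 1.16 and 0.738. *Chgb*, a granule protein, reached 819.6 CPM (788 to 852) in *Gh*-making and 9482 CPM (9363 to 9603) in *Prl*-making barcodes, against 18.6 in T cell-like cells. *Pcsk2*, a prohormone convertase, was the one below 10-fold in *Gh*-making barcodes, at 14.0 CPM against 2.53.

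Some lineage factors and receptors for hypothalamic signals differed in level between the sets. *Pou1f1*, the factor of somatotrophs, lactotrophs and thyrotrophs, was at 343 CPM (323 to 364) in *Gh*-making and 659.5 (628 to 692) in *Prl*-making barcodes, and at 3.66 in T cell-like cells. In *Pomc*-making barcodes it was at 2.78 CPM (0.757 to 7.11). *Tbx19* and *Pitx1* were found in several sets. *Tbx19*, the factor of *Pomc* cells, was at 427 CPM (394 to 462) in *Pomc*-making barcodes, against 1.05 in T cell-like cells. It was also at 40.6 (33.9 to 48.3) in *Gh*-making barcodes, where 32 of 620 (5.16%) held it. Whether these 32 are doublets was not tested. *Pitx1*, a factor shared by pituitary lineages, was at 50.8, 80.4 and 121 CPM in *Gh*-, *Prl*- and *Pomc*-making barcodes, against 0.784. *Ghrhr*, the receptor for growth hormone-releasing hormone, was at 468 CPM (445 to 493) in *Gh*-making and at 3.56 (1.63 to 6.76) in *Prl*-making barcodes. It had a UMI in 354 of 620 and in 2 of 429 barcodes. The dopamine receptor gene *Drd2* went the other way, with 2.22 CPM (0.893 to 4.58) in *Gh*-making and 49.5 (41.2 to 59.0) in *Prl*-making barcodes. *Drd2* was higher still in *Pomc*-making barcodes, at 94.4 CPM (79.2 to 112). None of the 7 lineage factors or 8 receptors had 50 UMIs in T cell-like cells, so those that reached this minimum did so through the hormone-making barcodes, and no count of them is given. Of 4 other pituitary products, *Dlk1* and *Nnat* had 50 UMIs in T cell-like cells of FMC_new alone. In T cell-like cells of C-ON, *Dlk1* had 0 UMIs and *Nnat* had 9, so nothing is read from the number that were 10-fold higher. *Dlk1*, one of them, was at 3992 CPM (3923 to 4063) in *Gh*-making barcodes, against 23.5.

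*Pomc*-making barcodes fell into separate clusters with unlike companions. The 70 in cluster 11 and the 48 in cluster 22 had similar *Pomc* shares, with medians of 13.3 and 13.7%. In cluster 11 the corticotroph receptors *Crhr1* and *Avpr1b* had a UMI in 64.3 and 55.7% of barcodes, against 10.4 and 2.08% in cluster 22. In cluster 22 *Pcsk2*, which cuts the precursor further, was found in 48 of 48 barcodes at 2438 CPM (2294 to 2590), against 5 of 70 at 8.67 CPM (3.18 to 18.9) in cluster 11. *Pax7*, a factor of melanotrophs, was found in 72.9% and *Oacyl* in 100% of the cluster 22 barcodes, and both had 0 UMIs in the 70 barcodes of cluster 11. *Drd2* was found in 38 of 48 barcodes of cluster 22 and in 0 of 70 of cluster 11. *Tbx19*, the factor of both lineages, was present in each, in 98.6 and 85.4% of barcodes. Another 17 were in cluster 15, at a median depth of 2488 UMIs, and had neither pattern. There *Crhr1* was found in 2 barcodes, *Avpr1b* in 1, and *Pcsk2*, *Pax7*, *Oacyl* and *Drd2* in 0. Outside the filter of the study were 24 more. These genes took part in the clustering, so the separation is described and not tested.

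Barcodes with *Cga* mostly held 1 kind of beta subunit or neither, and seldom both. In FMC_new, 207 barcodes had at least 10 *Cga* UMIs, a limit chosen after the values were seen, as were the 3 UMIs asked of a beta subunit. Of these, 73 had *Lhb* or *Fshb* without *Tshb*, 44 had *Tshb* without them, 1 had both kinds and 89 had neither. *Lhb* and *Fshb* occurred together in 38. The 89 with neither had a median of 39 *Cga* UMIs, against 190 in the 73 and 189 in the 44. Of the 89, 19 had at least 50 *Pomc* UMIs. Whether a beta subunit was missed in the 89 was not tested. *Gnrhr*, the receptor for gonadotropin-releasing hormone, had a UMI in 51 of the 73 barcodes and in 0 of the 44. *Nr5a1*, the factor of gonadotrophs, was found in 23 of 73 and in 0 of 44, while *Trhr*, the receptor for thyrotropin-releasing hormone, was found in 0 of 73 and in 11 of 44.

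**Figure D4:**
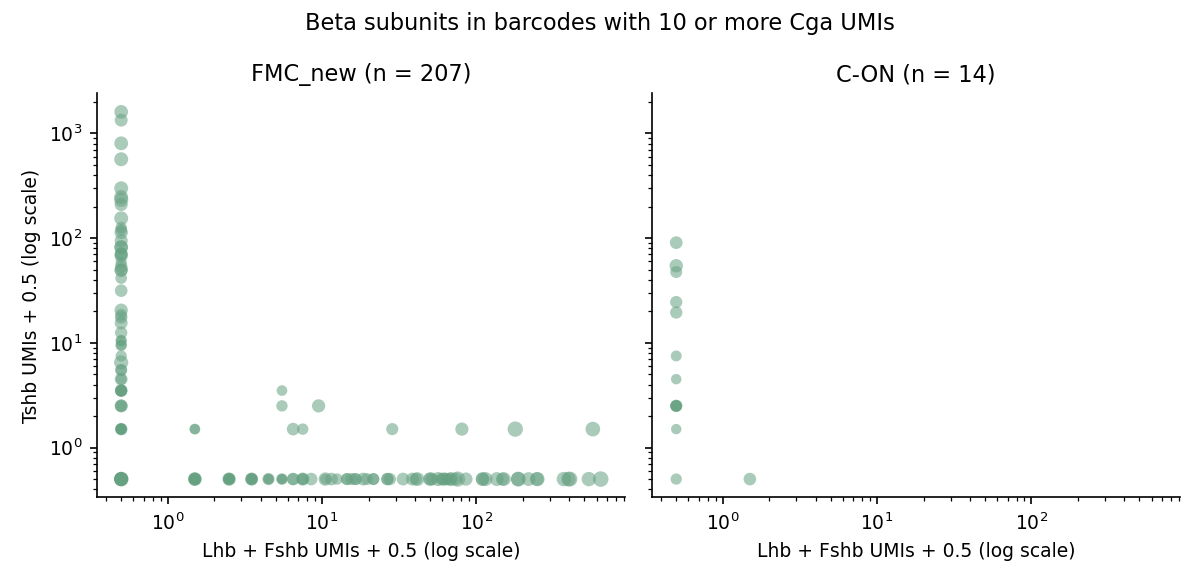
*Tshb* UMIs against *Lhb* plus *Fshb* UMIs (both + 0.5, log scales) for barcodes with 10 or more *Cga* UMIs, with larger points for more *Cga*. The 207 barcodes of FMC_new lie along both axes, and of the 14 of C-ON, 12 hold a *Tshb* UMI and 1 holds an *Lhb* UMI.

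The 44 barcodes with *Cga* and *Tshb* were of different kinds. The cholecystokinin gene *Cck* had at least 3 UMIs in 18 of them, and in the other 26 it had 0 UMIs. The 18 also held *Apoc3*, an apolipoprotein gene, in every barcode, at 2909 CPM (2695 to 3136), and the granule gene *Chga* at 44654 CPM (43804 to 45518). The 26 held no *Apoc3* UMI, and *Chga* was at 1077 CPM (939 to 1230). *Pou1f1* went the other way, with a UMI in 18 of the 26 barcodes at 613 CPM (510 to 731) and in 1 of the 18 at 8.52 CPM (1.03 to 30.8). *Trhr* was found in 11 of 26 and in 0 of 18, and *Dlk1* in 25 of 26 and in 3 of 18. *Pitx1* was in all of the 18 and in 12 of the 26. The split by *Cck* was made after the values were seen.

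The C-ON barcodes with *Cga* held *Cck*. In that library 14 barcodes had at least 10 *Cga* UMIs, from 18 to 424, and none of them had a *Gh*, *Prl* or *Fshb* UMI. *Tshb* had at least 3 UMIs in 7, from 4 to 90, and *Lhb* had 1 UMI in 1 barcode. *Cck* was found in 14 of 14, *Pitx1* in 14 of 14 and *Apoc3* in 12 of 14, and *Pou1f1*, *Trhr* and *Dlk1* had 0 UMIs. In the 7 with *Tshb*, *Cck* was at 8817 CPM (7948 to 9755), *Apoc3* at 2579 (2120 to 3109) and *Chga* at 80244 (77578 to 82978). *Pou1f1* without a UMI in the 14 has an exact interval of 0 to 40.8 CPM. As background, the pars tuberalis, the part of the pituitary around the stalk, is known for thyrotrophs that make *Cga* and *Tshb* without *Pou1f1*. Whether the C-ON barcodes come from there was not tested.

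**Figure D5:**
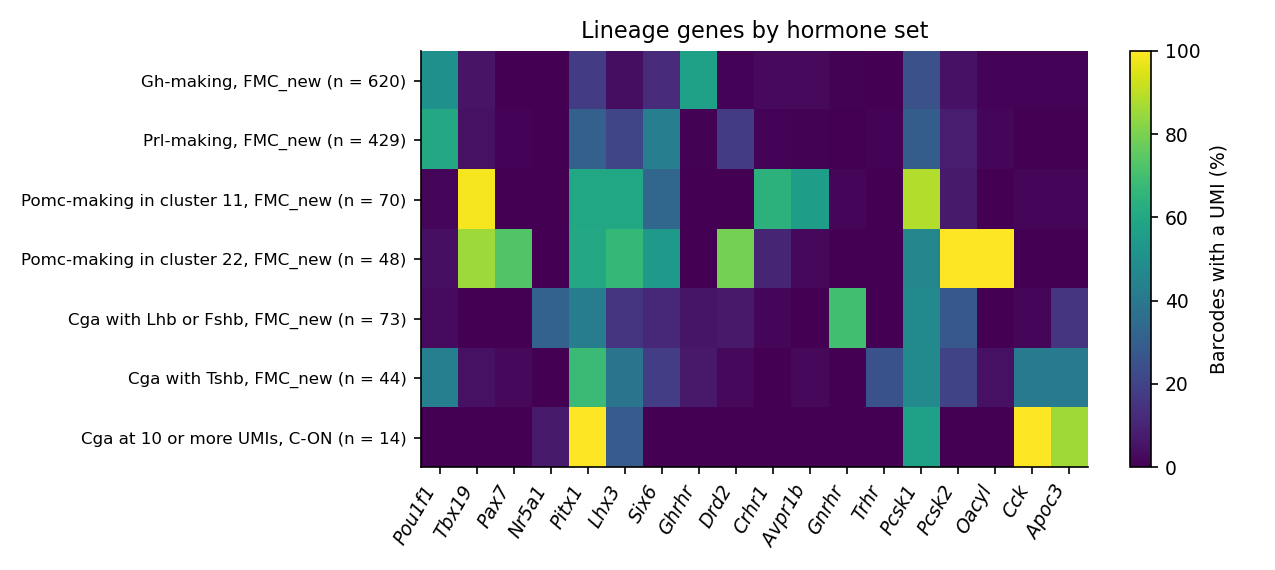
Share of barcodes (%) with a UMI of each lineage gene (columns), by hormone set (rows). *Ghrhr*, *Crhr1*, *Pax7* and *Gnrhr* are each high in a set of their own, and the 14 barcodes of C-ON share *Cck* and *Apoc3* with some of the barcodes with *Cga* and *Tshb* in FMC_new.

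These C-ON barcodes were mostly in cluster 20, which was unnamed, had 94 barcodes and was led by *Chga* and *Chgb*. It held 1287 of the 1575 *Cga* UMIs of the library (81.7%), in 21 barcodes, and 156 of the 372 *Tshb* UMIs, in 12. *Cga* was at 4580 CPM of all UMIs (4333 to 4838) in the cluster and at 0.425 (0.260 to 0.657) in oligodendrocyte-like cells. *Tshb* was also counted outside that cluster, with 81 UMIs in 78 oligodendrocyte-like barcodes, at 1.72 CPM (1.37 to 2.14), and 0 in T cell-like cells, where the exact upper bound is 1.16. Each of the 78 barcodes also held *Tspan2*, the gene on the opposite strand, as did 97.5% of all oligodendrocyte-like barcodes, and *Tspan2* was at 1288 CPM in oligodendrocyte-like and 69.8 CPM in T cell-like cells. Whether these reads belong to *Tspan2* was not tested. *Pomc* was spread thinly over C-ON, with at most 2 UMIs in any of 257 barcodes, at 3.76 CPM (3.23 to 4.36) in oligodendrocyte-like and 1.89 (0.693 to 4.11) in T cell-like cells.

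The hormone genes also differed between the libraries outside the hormone-making barcodes. With these left out, 2.71% of the 18373 genes tested were at least 10-fold higher in FMC_new than in C-ON, and 6 of the 7 members were. *Gh*, *Prl*, *Lhb* and *Fshb* were among the genes tested only through their UMIs in FMC_new, so nothing is read from that count. Scaled to all UMIs of these barcodes, *Gh* was at 3141 CPM in FMC_new and 0.0118 in C-ON, where it rests on 1 UMI. *Prl* was at least 27221-fold higher, *Pomc* 852-fold, *Fshb* 97.2-fold and *Cga* 13.3-fold. These barcodes include those with much hormone below the limit of 10%. Clusters 11, 15 and 22 held 73.3% of their *Pomc* UMIs. Of their *Cga* UMIs, cluster 22 held 41.0% and barcodes outside the filter of the study 31.5%. The folds are therefore not those of the named types. *Tshb* was 5.25-fold higher, below the limit, at 22.9 and 4.37 CPM. The libraries differ in cell types as well, and a difference between 1 library and another cannot be told apart from the mice, the dissection or the preparation.

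The genes most like each hormone over the 29 clusters of FMC_new were found among 12004 genes with at least 500 UMIs, by the Pearson correlation of log2(CPM + 1), which is given as a description since the clusters share a library. For *Gh* they were *5330429C05Rik* (r = 0.91), *Gm14618* (0.87) and *Ghrhr* (0.86). *Pomc* was followed by *Tbx19* (0.96), *Neurod1* (0.94) and *Cntnap5a* (0.90). *Prl* was followed less closely, by the neuropeptide gene *Gal* (0.73), *Tgfbr3l* (0.68) and *Gm32647* (0.68). *Tgfbr3l* was also first for *Cga* (0.82), ahead of *Chga* and *Chgb* (both 0.77), for *Lhb* (0.85), ahead of *Aga* (0.74) and *Nenf* (0.72), and for *Fshb* (0.89), ahead of *Gm32647* (0.75) and *Gm6999* (0.71). For *Tshb* they were *Gm32647* (0.81), *Cck* (0.75) and *Tgfbr3l* (0.74). *Prl*, *Cga*, *Lhb* and *Fshb* were each highest in cluster 17, as was *Tgfbr3l*. That cluster held 188 *Prl*-making, 68 *Gh*-making and 28 *Cga*-making barcodes. *Tshb* was highest in cluster 22, as was *Cck*. *Pomc* was at nearly the same level in clusters 22 and 11, at 55151 and 55046 CPM, and *Tbx19* and *Neurod1* were highest in cluster 11. A correlation over clusters cannot tell apart the kinds of cells within 1 cluster.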

How the data were processed

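Optic nerve suspensions were sequenced with a 5′ droplet kit in 2 libraries, each labelled NF1-OPG. The authors aligned reads to mm10 and counted UMIs with Cell Ranger (7.2.0 per the submitters' processing notes, while the methods of the study name an earlier version; whether intronic reads were counted is not given in the sources used here), and deposited whole-number counts per gene and barcode, without normalization. Counts were used as deposited. Cells with 500 to 5000 genes, 500 to 20000 UMIs and at most 5% mitochondrial UMIs were clustered in each library on its own with Seurat 5.3.0 (R 4.3.3; 2000 variable features without the 7 genes, 30 components, resolution 0.8). The study does not state the components and resolution. A cluster was named when at least 3 markers of a class were in 20% of its cells at 2 times the mean of the clusters. The name was withheld where another class had more markers among the 10 leading genes. It was also withheld where at least 3 of these were immunoglobulin variable genes, outside plasma cell-like and B cell-like clusters. Clusters with a median depth far below that of the library and no leading marker of the class stayed unnamed too. Clustering served to name cell types, and all barcodes entered the counts of hormone-making barcodes.

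Intervals are exact 95% Clopper-Pearson and Poisson intervals (Python 3.11.15, scipy 1.17.1) and cover counting error only. A count of 0 was replaced by a floor of 3 counts for folds, and genes needed 50 UMIs in the sets compared. The genes named are the 7 members, 3 genes most like each, and 28 genes in 4 lists. The members and lists were chosen with earlier results of these data known. *Cck*, *Apoc3*, *Tspan2*, *Clec9a*, *Xcr1*, *Flt3*, *Dcn* and *Col1a2*, clusters 11, 15 and 22, and the limits of 10 *Cga* and 3 beta subunit UMIs, were chosen after the values were seen. The fold step was checked on simulated counts with changed genes. Columns of the authors' comparisons were not used.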

Additional observations from a re-analysis of the deposited data

How the results depend on the processing

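The count of 1251 hormone-making barcodes was 1859 at a limit of 5% and 880 at 20%, within 1.5 times, and fell to 810 with the filter of the study on cells. The hormone share of all other barcodes was 0.537% at a limit of 5%, 1.02% at 20%, 0.713% with the filter, 1.23% as a mean over barcodes and 0.415% in named types other than pituitary. Hormone-making barcodes over both libraries (3.89%) were 5.78% at 5% and 2.73% at 20%, and ran from 0 to 5.86% with either library left out. The 1.89-fold range of *Gh* per barcode over cell types was 2.95-fold after thinning, which lowers counts more in deeper types. It was 2.20-fold with the libraries joined by CCAIntegration, where the lowest type was ILC2-like, and 1.63-fold at 5%. It was 1.32-fold without epithelial-like cells and 1.33-fold for medians. The 497 genes at least 10-fold higher in FMC_new became 1096 at 5-fold. *Gh* was 43.8% of the hormone UMIs of all other barcodes, 53.0% at 5%, 44.3% with the filter and 72.3% in named types. The values for named types, without epithelial-like cells and for medians were added after the data were seen. No paired analysis was possible because both libraries belong to 1 group. With a floor of 3 counts, C-ON allows up to 0.0353 CPM of a gene without a UMI, and the exact upper bound is 0.0433.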
